A study of Mus musculus with 384 samples.

Results

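Saa3, Lcn2, Hp, C3, Cfb, Fpr1 and Fpr2 are 7 of the 23481 genes in the deposited count table of stimulated mouse macrophages, taken by name as genes of the acute phase, of complement and of the receptors next to them. They were followed over 12 ligands, 8 times and 2 genotypes, and 6 of the 7 had enough counts to be tested, all but Hp. Bone marrow of male C57BL/6 mice, 13 weeks of age, was the source of the macrophages. KO cells lacked Myd88 per the labels, and WT cells carried it. Cells of both genotypes had been infected with the same pool of reporter viruses on day 4 and replated on day 9, so no uninfected cells are compared here. Each genotype filled 2 plates of 96 wells, called replicates 1 and 2, with 1 well for each ligand at 0, 0.5, 1, 1.5, 2, 2.5, 3 and 4 h. The ligands were Pam3Cys (a bacterial-type lipopeptide), R848 (a small-molecule agonist of endosomal receptors), CpG (bacterial-type DNA), FLA, LPS (lipopolysaccharide), MDP together with LPS (MDP/LPS), Zymosan (yeast cell wall particles), Poly(I:C) (synthetic double-stranded RNA), SeV, MDP, TDB and HT-DNA. No wells left without ligand after time 0 are used here, so time in the well and ligand cannot be told apart for a ligand taken alone.

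The acute-phase response is the rise of a set of defence proteins after infection or injury, made mostly by the liver under interleukin signals and, for some of them, by macrophages on the spot. Saa3 is the serum amyloid A that mouse macrophages and other cells outside the liver make, Lcn2 encodes lipocalin that binds the iron carriers of bacteria, and Hp encodes haptoglobin, which binds free haemoglobin. C3 is the central protein of the complement cascade, Cfb is the protease of its alternative pathway, and Fpr1 and Fpr2 are receptors for formylated peptides of bacteria, Fpr2 also being known as a receptor for serum amyloid A. MyD88 is the adaptor of most Toll-like receptors and of the interleukin-1 receptor, while TLR3 signals without it and TLR4, the LPS receptor, uses both MyD88 and the adaptor TRIF.

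Levels are given as CPM, the counts of a gene scaled to the same total for every well or sum of wells. Wells held 71720 to 767167 counts (median 342561). To gain depth, wells were added up by plate into 1 time 0 sum of 12 wells and, for each ligand, an early sum of 0.5 and 1 h wells, a middle sum taking 1.5 and 2 h wells, and a late sum of the 2.5, 3 and 4 h wells. These sums were tested with edgeR's quasi-likelihood test across 10562 genes. An adjusted p under 0.05 (Benjamini-Hochberg) is called a change. The labels do not say whether the 2 plates of a genotype came from separate animals, so the p-values measure the spread between plates, which may be technical. Intervals on ratios of counts are exact 95% intervals and cover counting error only, and a fold written as "at least" sets a group without counts at 3 counts over the group. In bulk wells, fewer cells of a type and less RNA per cell cannot be told apart. Myd88 had 15.1 and 18.2 CPM over KO plates, against 45.95 and 47.7 CPM over WT plates, and whether its 3′ tags lie in the deleted part is not given in the sources used here. Macrophage markers summed to 5647 and 5809 CPM on KO plates and to 5951 and 5990 CPM on WT plates. Of 5 hepatocyte markers 4 were at 0, and lymphocyte markers summed to 0.3215 CPM or less on any plate. The cells thus carried macrophage markers, and liver markers were almost absent.

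Promoters were found for 5 of the 7 genes in the RefSeq table (GRCm38.p6). Those of Saa3, C3 and Fpr2, which carry every member call below but 1, are shown. Each is 250 bases ending at the base before the RefSeq start, from which distances are counted. The Saa3 window partly overlaps the gene as GENCODE places it (to 46715700). Capitals mark matches to the C/EBP motif TTNNGNAA or the STAT motif TTCNNNGAA, searched on both strands. Each line names the gene, its strand and its place.

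Saa3 promoter, chr7:46715677-46715926, minus strand: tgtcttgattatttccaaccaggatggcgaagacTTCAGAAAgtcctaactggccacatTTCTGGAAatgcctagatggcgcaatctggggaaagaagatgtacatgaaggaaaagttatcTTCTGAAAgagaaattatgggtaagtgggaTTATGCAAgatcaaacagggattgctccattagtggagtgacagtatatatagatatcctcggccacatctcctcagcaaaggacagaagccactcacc

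C3 promoter, chr17:57228137-57228386, minus strand: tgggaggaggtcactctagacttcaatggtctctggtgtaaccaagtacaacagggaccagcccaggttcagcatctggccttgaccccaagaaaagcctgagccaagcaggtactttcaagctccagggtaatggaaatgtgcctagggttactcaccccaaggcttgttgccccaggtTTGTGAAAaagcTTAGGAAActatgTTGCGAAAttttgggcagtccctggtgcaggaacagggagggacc

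Fpr2 promoter, chr17:17887574-17887823, plus strand: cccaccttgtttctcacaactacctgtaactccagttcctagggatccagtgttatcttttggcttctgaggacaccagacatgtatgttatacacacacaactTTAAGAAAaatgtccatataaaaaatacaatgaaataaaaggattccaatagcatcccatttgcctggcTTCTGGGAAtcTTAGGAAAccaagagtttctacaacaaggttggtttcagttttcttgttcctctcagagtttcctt

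The Saa3 window held 4 C/EBP matches, the nearest of them 99 to 92 bases before the start. The C3 window held 3 within 70 bases of the start, and the Fpr2 window held 2 together with 1 STAT match 77 to 69 bases before it. Fpr1 had 3 C/EBP matches and Lcn2 had 1. The Lcn2 window (32387740 to 32387989) lies inside the gene as GENCODE places it (to 32388252). Of 32841 promoter windows of this length, 36.9% held a C/EBP match and 7.02% a STAT match. The NF-kB motif, present in 3.90% of the windows, had no match in any of the 5 promoters. These matches are descriptions of the letters and do not show binding.

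Saa3 (chromosome 7, 46711998 to 46715700, minus strand, mm10) was the member with the widest range, and it was low in resting KO cells. At time 0 it had 0.426 and 0.508 CPM in KO plates, against 28.6 and 43.6 CPM in WT plates. The KO wells held 4 counts in all and the WT wells 278. In KO, 1 of the 12 time 0 wells of each plate had any count. In WT, 12 wells of replicate 1 had counts, with a lowest, median and highest value of 19.0, 27.1 and 55.9 CPM, and 11 wells of replicate 2, with 0, 31.6 and 130.1 CPM. The groups of plates did not overlap, and the ratio of counts was 0.0135 (0.00364 to 0.0348). The log2 difference of KO against WT was -5.91 (SE 0.76, edgeR adjusted p = 2.3e-08), and it lay between -6.20 and -5.56 when any 1 plate was left out. It was the 1 member of 6 called at time 0, where 0.275% of all genes were called lower in KO and 0 were called higher.

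Stimulated WT cells split the ligands into a high and a low group for Saa3. Late sums in WT were 498.7 and 403.4 CPM with MDP/LPS, 425.9 and 350.2 CPM with Zymosan, 371.5 and 389.4 CPM with LPS, 423.4 and 326.3 CPM with CpG, 350.4 and 364.3 CPM with R848, and 264.7 and 214.5 CPM with Pam3Cys. With FLA, Poly(I:C), HT-DNA, SeV, MDP and TDB the 12 late sums lay between 18.4 and 50.0 CPM. The 6 ligands of the high group did not overlap with the 6 of the low group. Within the high group the plate ranges of MDP/LPS, Zymosan and CpG overlapped one another, and the means ran from 451 ± 67.4 CPM with MDP/LPS to 240 ± 35.5 CPM with Pam3Cys (SD, n = 2 plates). In the low group Poly(I:C) averaged 36.6 ± 11.8 CPM, next to 36.1 ± 10.6 CPM at time 0.

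All 6 high ligands were called against WT time 0. The log2 changes were 3.98 with MDP/LPS (SE 0.58, edgeR adjusted p = 7.05e-08), 3.72 with LPS (SE 0.57, 3.54e-07), 3.67 with Zymosan (7.37e-07), 3.56 with CpG (3.75e-06), 3.44 with R848 (5.37e-06) and 2.82 with Pam3Cys (SE 0.55, 2.38e-04). The 6 others had log2 changes between -0.69 and 0.22 and were not called. Over the 6 tested members and 12 ligands, 7 of 72 WT tests were called higher, 6 of them Saa3, and 0 lower, against 2.09% of all gene tests called higher and 0.688% lower. By ligand, the share of all genes called higher in WT ran from 0.0189% with HT-DNA to 4.55% with LPS. The Saa3 calls lean on having both WT plates. Without replicate 1 of WT the 6 changes were 2.38 to 3.58 with edgeR adjusted p of 0.14 to 1. Without replicate 2 of WT only MDP/LPS was still called (log2 change 4.51, adjusted p = 0.0321), and the other 5 had adjusted p of 0.0523 to 0.537.

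The rise in WT came late. In WT wells treated with LPS, Saa3 had 34.9, 11.8, 30.6, 40.2, 49.4, 182.8, 157.5 and 688.2 CPM from 0 to 4 h on replicate 1 and 32.8, 24.6, 44.3, 35.2, 75.5, 172.7, 223 and 691.1 CPM on replicate 2. Both plates stayed near the time 0 value up to 1.5 h and were at their highest at 4 h. Over the 6 high ligands, the median on replicate 1 of WT was 26.5 CPM at 0 h, 90.6 CPM at 2 h, 146 CPM at 2.5 h, 240.1 CPM at 3 h and 699.2 CPM at 4 h. On replicate 2 the medians at these times were 29.4, 66.2, 113.5, 225.8 and 580.9 CPM. The highest single wells were those of MDP/LPS at 4 h, with 1089 and 869.3 CPM in WT. In KO no well at 4 h was above 26.06 CPM. In the middle time class 0 of 72 WT tests of members were called by edgeR and 1 reached an unadjusted p under 0.05 (0 with DESeq2), where 0.806% of all gene tests were called higher and 0.133% lower.

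**Figure D1:**
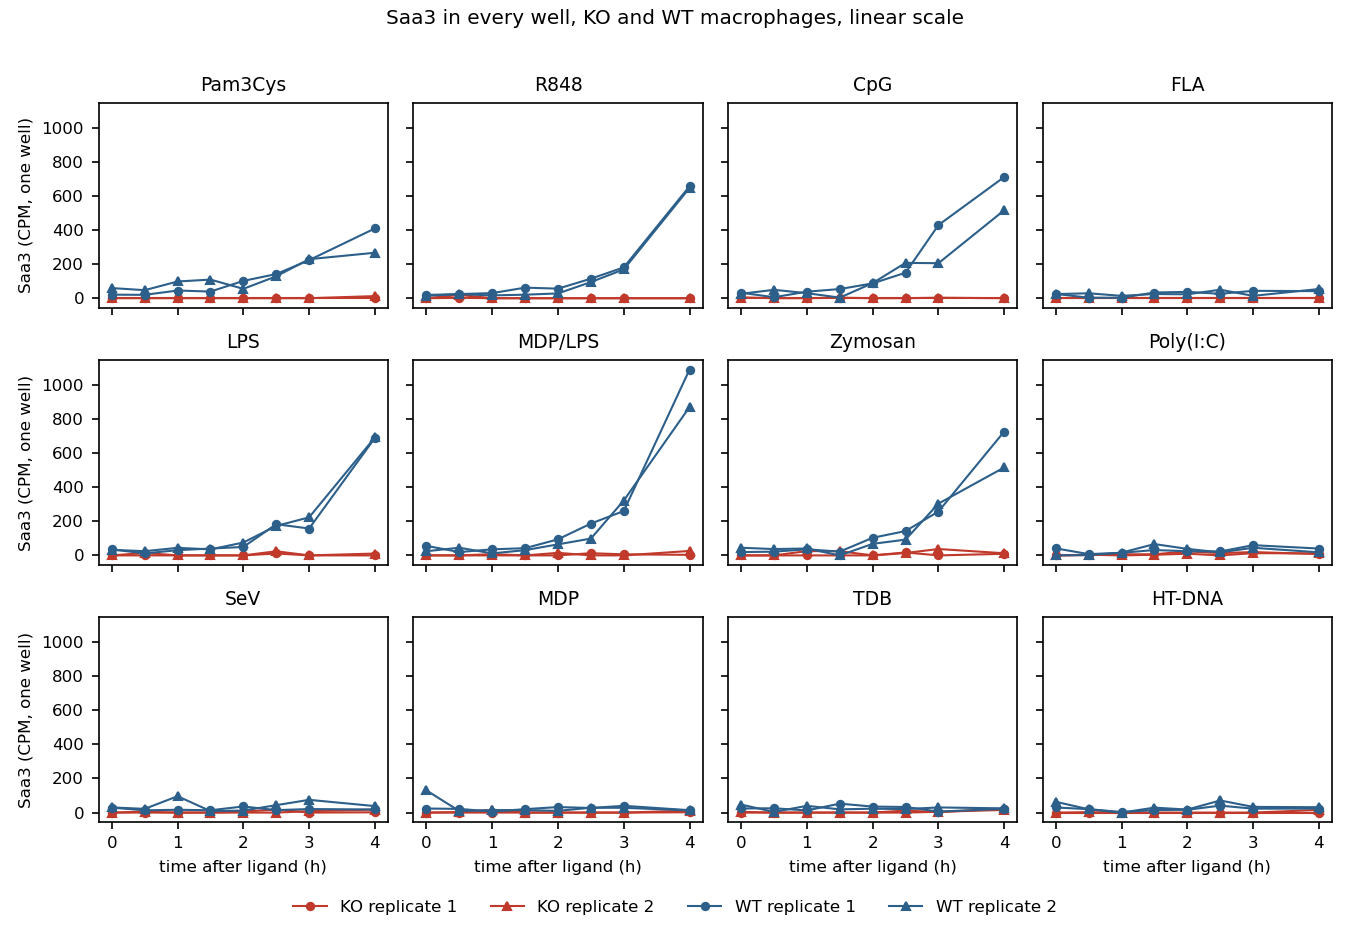
Saa3 in every well, in CPM on a linear axis against hours after the ligand, with a panel for each ligand. Red lines are the 2 KO plates and blue lines the 2 WT plates, each point being 1 well; the WT lines climb after 2 h with Pam3Cys, R848, CpG, LPS, MDP/LPS and Zymosan, and the KO lines stay at or below 26.06 CPM at 4 h.

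In KO cells Saa3 stayed low but was not flat. Late KO sums were 8.27 and 22.3 CPM with Zymosan, 13.9 and 9.41 CPM with Poly(I:C), 12.5 and 6.39 CPM with TDB, 7.77 and 8.21 CPM with MDP/LPS, 4.24 and 9.26 CPM with SeV, and 3.09 and 10.2 CPM with LPS. All 12 of these sums were above both KO time 0 sums. With R848 and FLA both KO sums were 0, with CpG they were 0.863 and 0 CPM, and with Pam3Cys 0 and 3.51 CPM. MDP gave 0.804 and 3.20 CPM and HT-DNA 0 and 5.06 CPM.

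The KO changes against time 0 were called with Zymosan (log2 change 4.83, edgeR adjusted p = 6.9e-06), Poly(I:C) (4.44, SE 0.81, 2.01e-05), MDP/LPS (3.97, 0.00354), TDB (3.96, 0.00568), SeV (3.75, 0.00321) and LPS (3.66, 0.0204). They rest on few molecules, since the 12 time 0 wells of both plates held 4 counts. Late wells held 31 counts with Zymosan, a ratio of 32.2 (11.4 to 125.6), and 37 counts with Poly(I:C), a ratio of 26.2 (9.42 to 101.3). With LPS they held 8, a ratio of 13.9 (3.74 to 63.3). By ligand, the share of all genes called higher in KO ran from 0.00947% with Pam3Cys, FLA and CpG to 4.86% with Poly(I:C). Over members, 11 of 72 KO tests were called higher, 6 of them Saa3, and 0 lower, against 1.58% of all gene tests called higher and 0.593% lower. Leaving out KO replicate 1 gave 7 calls, and leaving out KO replicate 2 gave 5. The Zymosan and Poly(I:C) calls held without any 1 plate. The LPS call was lost without WT replicate 1 (adjusted p = 0.113), WT replicate 2 (0.112) or KO replicate 2 (log2 change 2.72, 0.503), or with late wells taken as 3 and 4 h (2.14, 0.579), the TDB call without WT replicate 1 (0.149), WT replicate 2 (0.155) or KO replicate 1 (3.33, 0.333), and the SeV call without KO replicate 2 (3.22, 0.169). When a plate-wide share of each plate's counts was subtracted from every well, LPS, MDP/LPS, SeV and TDB were no longer called (edgeR adjusted p 0.0582 to 0.18) and Zymosan and Poly(I:C) still were. Set against the time 0 wells of the same ligand label alone, Poly(I:C) was still called and the other 5 were not (0.0846 to 0.836).

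Poly(I:C) was the ligand with a called middle change in KO, the 1 of 72 member tests in that class (0.6% of all gene tests were called higher and 0.21% lower). Saa3 held 19 counts in those middle wells, a log2 change of 4.07 (SE 0.87, edgeR adjusted p = 0.00103), which was 3.39 with an adjusted p of 0.107 without KO replicate 1 and had an adjusted p of 0.166 against time 0 wells of the same label. Set against LPS in the same late window, Poly(I:C) gave less Saa3 in WT, with 44.95 and 28.3 CPM against 371.5 and 389.4 CPM. The log2 difference of Poly(I:C) against LPS in WT was -3.50 (SE 0.58, edgeR adjusted p = 2.23e-05), and in KO it was 0.77 (adjusted p = 0.735), on sums of 13.9 and 9.41 CPM with Poly(I:C) and 3.09 and 10.2 CPM with LPS. This comparison of ligands was chosen after the data were seen. It called 1 of 12 member tests lower, against 0.507% of all gene tests called lower and 0.294% higher, and the WT call was lost without either WT plate (log2 difference -3.92 without replicate 1 and -3.20 without replicate 2, adjusted p = 1 and 0.966).

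Side by side, late Saa3 was lower in both KO plates than in both WT plates with all 12 ligands. The level difference was called with 8 of them. With LPS it was 3.09 and 10.2 CPM in KO, against 371.5 and 389.4 CPM in WT (log2 difference -5.97, SE 0.73, edgeR adjusted p = 2.16e-09). The log2 difference was -7.10 with Pam3Cys (1.17e-11), -5.92 with MDP/LPS (9.68e-10) and -4.75 with Zymosan (2.76e-08). With R848 the 840 WT counts faced 0 in KO, at least 175-fold lower in KO (1.54e-12), and with FLA 78 faced 0, at least 17.0-fold lower in KO (5.1e-05). CpG had 1 KO count against 693 in WT, a ratio of 0.00123 (3.11e-05 to 0.00688). MDP was the weakest call (-3.60, adjusted p = 0.0169), and it was lost without WT replicate 1 (-3.40, adjusted p = 1), WT replicate 2 (-3.76, 1) or KO replicate 1 (-2.97, 0.0699), with the background subtracted (-2.58, 1), with late wells of 3 and 4 h (-3.01, 0.261) or with time 0 wells kept apart by label (-3.59, 0.0642). Poly(I:C), SeV, TDB and HT-DNA had log2 differences of -1.69, -2.37, -1.26 and -3.28 and were not called. Since KO was already lower at time 0, these late levels are not independent of the resting difference. The 12 ligands share the same plates, and how often all genes separate the plates in this way was not computed. By ligand, the share of all genes called lower in KO late ran from 0.0663% with HT-DNA to 4.23% with CpG. It was 4.10% with Pam3Cys, 4.22% with R848 and 2.97% with FLA. Over members, 17 of 72 late levels were called lower in KO, 8 of them Saa3, and 0 higher, against 1.76% of all gene tests called lower and 0.629% higher. The count was 9 without either WT plate and 10 without KO replicate 1.

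Whether the late change itself differed between genotypes was tested apart. No member differed by that test after adjustment (0 of 72 in edgeR's quasi-likelihood test, 7 at an unadjusted p under 0.05, and 0 with DESeq2), where 0.129% of all gene tests were called lower and 0.0197% higher. For Saa3 the change in KO minus that in WT was 4.22 on the log2 scale with Poly(I:C) (95% interval 2.31 to 6.13, edgeR adjusted p = 0.356) and 4.65 with TDB (2.59 to 6.70, 0.225). These sizes rest on a KO time 0 baseline of 4 counts, and late Saa3 stayed lower in KO than in WT with both ligands. The intervals are not adjusted for the number of tests. With R848 and CpG the fitted difference was below 0 (unadjusted p = 0.0276 and 0.0523, edgeR adjusted p = 0.643 and 0.968), and its size is not given because the late KO sums held 0 and 1 counts. With LPS it was -0.05 (-2.39 to 2.28) and with MDP/LPS -0.01 (-2.22 to 2.21), intervals wide enough to hold a 4-fold change either way. Adding MDP to LPS was not called for any member (0 of 12 tests with edgeR, 0 at an unadjusted p under 0.05 and 0 with DESeq2, where 0.00473% of gene tests were called higher). For Saa3 the log2 difference of MDP/LPS against LPS was 0.30 in KO and 0.26 in WT.

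**Figure D2:**
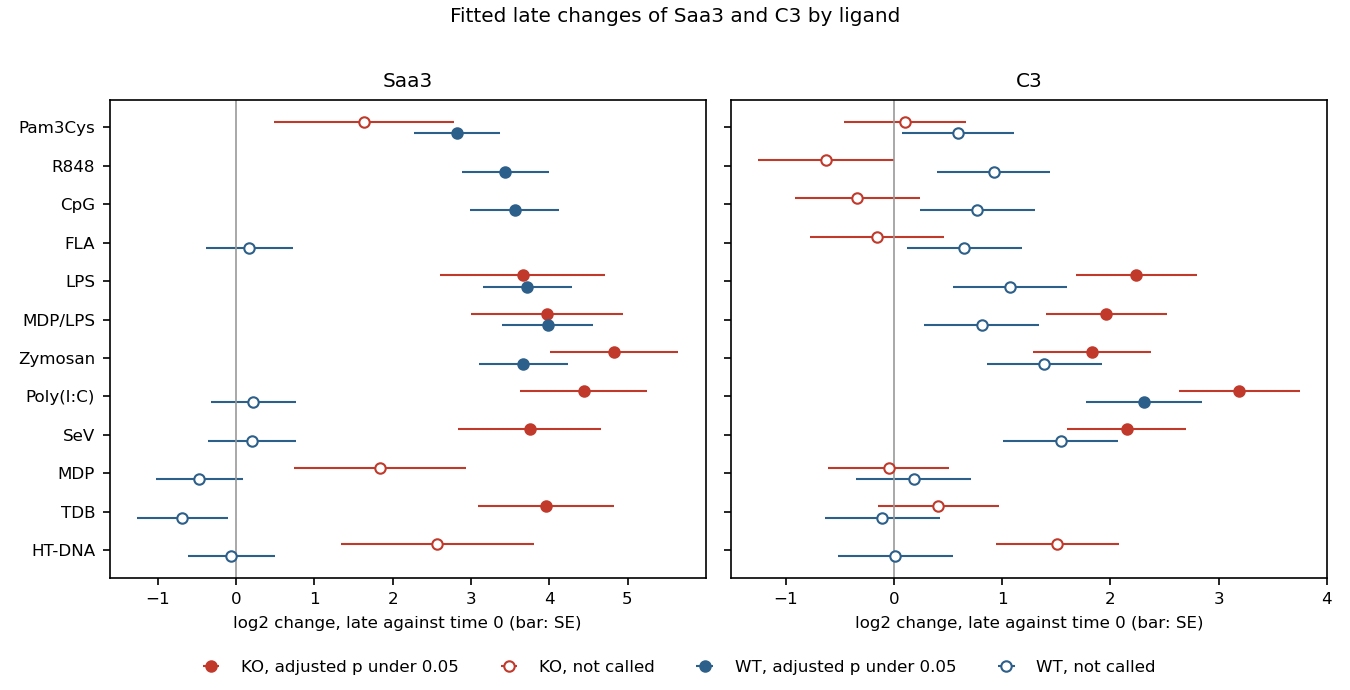
Fitted log2 changes of Saa3 (left) and C3 (right) from time 0 to the late sums, by ligand, with bars of 1 SE. Red points are KO and blue points WT, filled where the edgeR adjusted p is under 0.05, and KO changes of Saa3 with R848, CpG and FLA are not drawn because they rest on 0 or 1 late counts; C3 with Poly(I:C) is called in both genotypes, Saa3 with Poly(I:C) in KO.

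Lcn2 (chromosome 2, 32384633 to 32388252, minus strand), the siderophore-binding lipocalin, was low in both genotypes. At time 0 it had 5.11 and 4.06 CPM in KO plates, against 6.32 and 4.10 CPM in WT plates, and the plates overlapped. With MDP/LPS its late sums were 14.2 and 21.4 CPM in KO and 23.2 and 13.0 CPM in WT, and with Zymosan 8.27 and 3.04 CPM in KO and 15.0 and 18.2 CPM in WT. The single call was R848, with 0 counts in KO against 10.8 and 18.3 CPM in WT, at least 7.09-fold lower in KO (34 WT counts, edgeR adjusted p = 0.0279). The 8 R848 wells of KO replicate 2 were shallow, with 83325 to 118731 counts, and without wells under 150000 counts the call was lost (adjusted p = 0.1). It was also lost without WT replicate 1 (0.132), WT replicate 2 (0.304) or KO replicate 1 (0.162), with late wells of 3 and 4 h (0.057) and with time 0 wells kept apart by label (0.0538). Lcn2 was below both WT plates in both KO plates with 3 of 12 ligands, and the matching share over all genes was not computed.

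Hp (chromosome 8, 109575128 to 109579172, minus strand), haptoglobin, had 177 counts in all wells and was at 0 in 304 of 384. Time 0 sums were 0.852 and 0.762 CPM in KO and 1.84 and 3.79 CPM in WT. Late sums reached 5.33 CPM in KO, on replicate 1 with Poly(I:C), and 7.13 CPM in WT, on replicate 2 with Pam3Cys. It did not pass the filter on low counts. Tested without the filter it gave 0 calls in 77 edgeR tests and 0 at an unadjusted p under 0.05, so that test detected no difference at this depth. At time 0 the ratio of KO to WT counts, 7 against 21, was 0.312 (0.112 to 0.761), an interval that covers counting error only.

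C3 (chromosome 17, 57203970 to 57228136, minus strand), the hub of complement, was the member with the most counts, 12998 in all, and its pattern over ligands was not that of Saa3. At time 0 it had 39.6 and 30.2 CPM in KO plates, against 89.2 and 109.2 CPM in WT plates, with no overlap. The wells of KO replicate 1 had a lowest, median and highest value of 8.05, 39.6 and 70.2 CPM, and those of KO replicate 2 had 6.79, 32.3 and 81.9 CPM. In WT the wells of replicate 1 had 47.6, 64.2 and 316.6 CPM and those of replicate 2 had 56.4, 93.1 and 261.6 CPM, so wells of the genotypes overlapped while sums did not. The ratio of counts was 0.364 (0.318 to 0.416). The log2 difference of -1.53 (SE 0.53) was not called (edgeR adjusted p = 0.645). It was called without the filter on low counts (-1.54, adjusted p = 0.0207), with wells as replicates (-1.55, 8.03e-08) and with time 0 wells kept apart by label (-1.54, 5.43e-09). With wells as replicates or kept apart by label, the time 0 wells of a plate enter singly although they share that plate. The other alternatives did not call it. Among them were DESeq2 (-1.54, adjusted p = 0.386), the plate block (-1.14), the background subtracted (-1.56) and any 1 plate left out (-1.76 to -1.35).

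Poly(I:C) gave the highest C3 in both genotypes. Late sums were 341.6 and 234.4 CPM in KO and 427.1 and 436.4 CPM in WT. In KO the course over 0 to 4 h was 63.7, 42.8, 66.8, 78.8, 175.1, 110.6, 230.7 and 630 CPM on replicate 1 and 44.2, 20.4, 24.9, 68.7, 65.5, 80.5, 206 and 483.6 CPM on replicate 2. In WT it was 106.1, 45.6, 45.1, 144.5, 115.9, 230.6, 241.4 and 745.2 CPM on replicate 1 and 241.3, 72.6, 133.2, 112.9, 152.6, 178.8, 307.7 and 761.5 CPM on replicate 2. All 4 plates were at their highest at 4 h, and the late sums of both WT plates were above those of both KO plates. The log2 change was 3.19 in KO (SE 0.56, edgeR adjusted p = 1.32e-05), called without any 1 plate. In WT it was 2.31 (SE 0.54, 0.00197), and the call was lost without WT replicate 1 (2.15, 0.46) or WT replicate 2 (2.49, 0.184), or against time 0 wells of the same label (1.49, 0.182). The change in KO minus that in WT was 0.88 (95% interval -0.64 to 2.40). Against LPS the late log2 difference of Poly(I:C) was 0.95 in KO (adjusted p = 0.461) and 1.24 in WT (0.42), neither called.

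In KO cells C3 rose with 4 other ligands as well. Late KO sums were 163.8 and 118.4 CPM with LPS, 116.1 and 140.7 CPM with SeV, 156.7 and 72.3 CPM with MDP/LPS and 121.3 and 97.1 CPM with Zymosan, and all 8 were above the KO time 0 sums. The log2 changes were 2.24 with LPS (edgeR adjusted p = 0.00547), 2.15 with SeV (0.00721), 1.96 with MDP/LPS (0.0191) and 1.83 with Zymosan (0.0326). The LPS and MDP/LPS calls were lost without either KO plate (LPS 0.0792 without replicate 1 and 0.0576 without replicate 2, MDP/LPS 0.294 and 0.0604), SeV without KO replicate 2 (0.194), and Zymosan without any 1 plate (0.0682 to 0.211). Against time 0 wells of the same ligand label none of these 4 was called (0.0912 to 0.201). In WT the late sums were 142.2 and 192.0 CPM with LPS, 204.7 and 263.8 CPM with SeV, 132.5 and 142.0 CPM with MDP/LPS and 170.8 and 268.0 CPM with Zymosan. These WT sums were also above both WT time 0 sums, with log2 changes of 1.07, 1.54, 0.81 and 1.39 that were not called. HT-DNA gave 148.8 and 39.2 CPM in KO and was not called.

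Late C3 was called lower in KO with R848, CpG, FLA and Pam3Cys. With R848 it had 31.2 and 3.18 CPM in KO, against 163.1 and 177.4 CPM in WT. CpG gave 32.8 and 21.5 CPM in KO and 132.2 and 165.8 CPM in WT. FLA gave 40.0 and 23.6 CPM in KO and 160.9 and 132.9 CPM in WT, and Pam3Cys 29.3 and 47.3 CPM in KO and 141.5 and 139.0 CPM in WT. The plates did not overlap with any of these 4 ligands. The log2 differences were -3.08 with R848 (SE 0.64, edgeR adjusted p = 4.05e-04), -2.65 with CpG (SE 0.59, 0.0011), -2.33 with FLA (SE 0.62, 0.015) and -2.02 with Pam3Cys (SE 0.57, 0.0168). R848 and CpG were called without any 1 plate, R848 with a value of -5.72 without KO replicate 1, where 1 shallow plate is left. The FLA call was lost without WT replicate 1 (-2.20, 0.19), WT replicate 2 (-2.42, 0.106) or KO replicate 2 (-1.90, 0.128), and the Pam3Cys call without WT replicate 1 (-2.03, 0.124), WT replicate 2 (-2.02, 0.167) or KO replicate 1 (-1.72, 0.131) or with late wells of 3 and 4 h (-1.85, 0.0531). With LPS the level was 163.8 and 118.4 CPM in KO, against 142.2 and 192.0 CPM in WT (log2 difference -0.36, adjusted p = 0.851), and the plates overlapped. KO sums of C3 were already lower at time 0, so the late levels are not independent of the resting difference. The late change in KO minus that in WT was -1.55 with R848 (95% interval -3.16 to 0.06) and -1.11 with CpG (-2.65 to 0.42). It was -0.80 with FLA (-2.40 to 0.79) and -0.49 with Pam3Cys (-1.99 to 1.02), and none of these was called. KO plates were below WT plates for C3 with 9 of 12 ligands, which share the same plates. The matching share over all genes was not computed.

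**Figure D3:**
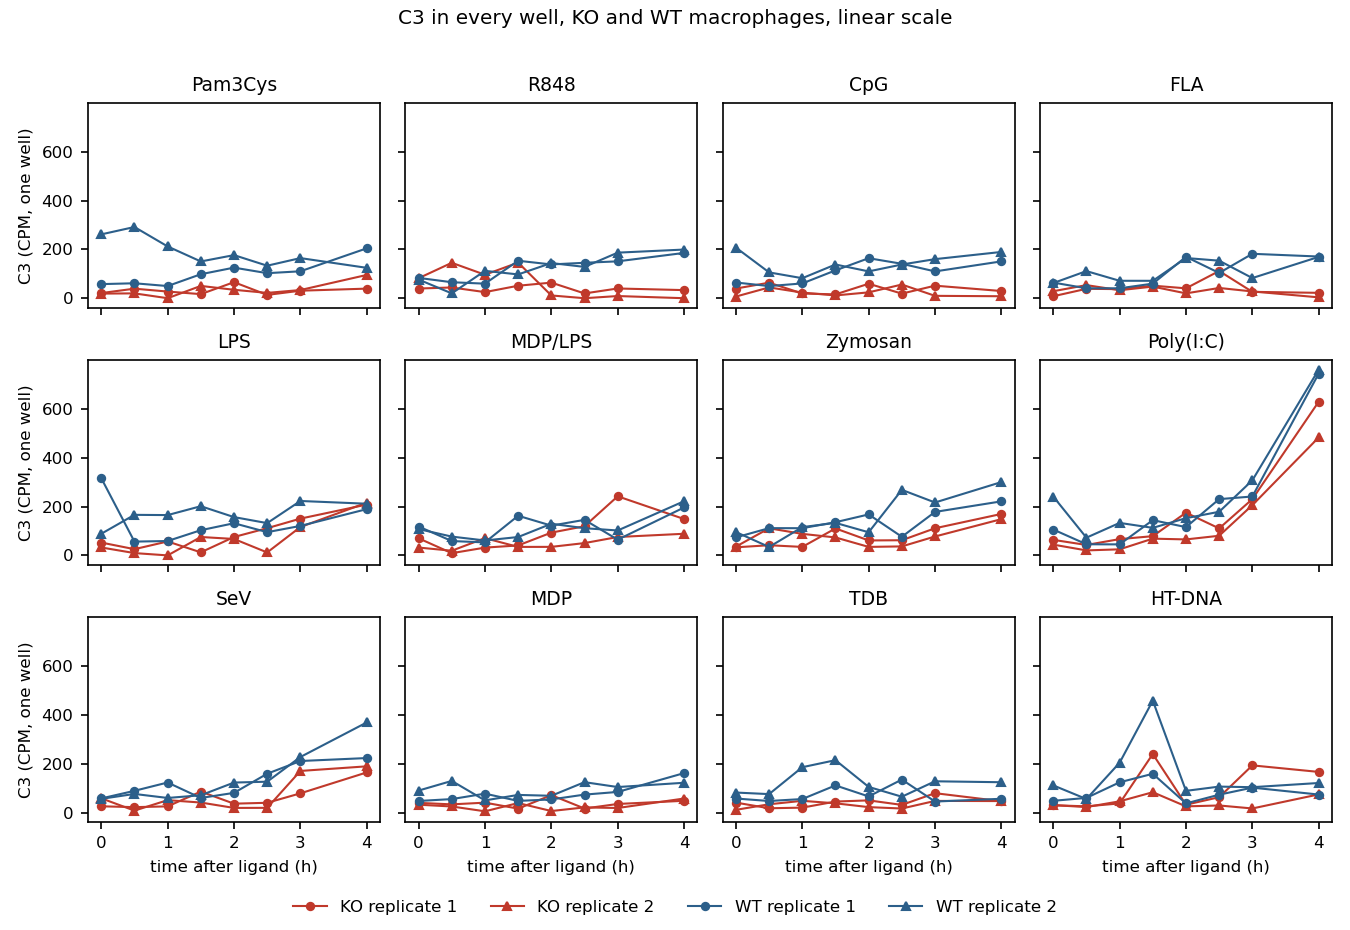
C3 in every well, in CPM on a linear axis against hours after the ligand, with a panel for each ligand, red lines for the 2 KO plates and blue lines for the 2 WT plates. With Poly(I:C) all 4 lines end between 483.6 and 761.5 CPM at 4 h, and single high wells stand out elsewhere, such as HT-DNA at 1.5 h with 240.1 CPM on KO replicate 1 and 458.7 CPM on WT replicate 2.

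Cfb (chromosome 17, 34856374 to 34862518, minus strand), factor B, had 484 counts and 0 calls. Time 0 sums were 1.70 and 0 CPM in KO and 3.47 and 1.26 CPM in WT. With MDP/LPS the late sums were 18.1 and 9.86 CPM in KO and 15.7 and 17.9 CPM in WT, with overlapping plates. With LPS they were 4.64 and 5.08 CPM in KO and 15.9 and 18.3 CPM in WT, and with Poly(I:C) 21.9 and 2.57 CPM in KO and 19.8 and 14.1 CPM in WT. Zymosan gave 7.35 and 0 CPM in KO, against 12.5 and 29.9 CPM in WT. WT sums with these 4 ligands were all above both WT time 0 sums, but no change passed the threshold. The log2 change was 4.04 for MDP/LPS in KO (edgeR adjusted p = 0.148), 3.32 for Zymosan in WT (0.307) and 3.10 for LPS in WT (SE 1.50, 0.306). The 3′ end of Nelfe, with 4503 counts, lies 2 bases from Cfb, so reads could be shared between them if counting did not use the strand.

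Fpr2 (chromosome 17, 17887824 to 17893952, plus strand), the receptor known to bind serum amyloid A, was nearly absent from KO wells, with 64 counts over all KO wells and 665 over all WT wells. At time 0 it had 0.426 and 1.52 CPM in KO, against 3.88 and 6.00 CPM in WT, a log2 difference of -2.22 (SE 1.31) that was not called (edgeR adjusted p = 1). With LPS it had 4.64 and 0 CPM in late KO sums, against 41.8 and 42.1 CPM in WT. MDP/LPS gave 0 and 4.93 CPM in KO and 46.4 and 30.8 CPM in WT, and the WT plates of these 2 ligands overlapped. Pam3Cys gave 0 and 0.877 CPM in KO and 27.6 and 23.5 CPM in WT. In 6 ligands, R848, CpG, FLA, Zymosan, TDB and HT-DNA, late KO sums were 0 on both plates. Both KO plates were below both WT plates with 10 of 12 ligands, which share the same plates. The matching share over all genes was not computed.

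Fpr2 was called lower in KO with Pam3Cys (1 KO count against 66, ratio 0.0176, 4.4e-04 to 0.102, edgeR adjusted p = 0.03), R848 (53 WT counts, at least 11.05-fold lower in KO, 0.032), CpG (35, at least 13.68-fold, 0.0196) and Zymosan (44, at least 14.26-fold, 0.0457). With LPS the 3 KO counts against 89 in WT gave a ratio of 0.0578 (0.0117 to 0.174), and the difference was not called (adjusted p = 0.203). All 4 calls were lost without WT replicate 1 (adjusted p 0.102 to 0.571), WT replicate 2 (0.244 to 0.429) or KO replicate 1 (0.0678 to 0.131), and those of CpG and Zymosan also without KO replicate 2 (0.0549 and 0.115). With late wells of 3 and 4 h the calls of Pam3Cys (0.0552), R848 (0.0515) and Zymosan (0.0707) were lost, and so they were with time 0 wells kept apart by label (0.0789, 0.0705 and 0.126). Pam3Cys was also lost with DESeq2 (0.0532), R848 without shallow wells (0.125) and Zymosan with the background subtracted (0.0855). Against WT time 0 the LPS wells held 8.91 times the CPM of Fpr2 (6.03 to 13.4), a log2 change of 3.37 (SE 1.34) with an adjusted p of 0.148.

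Fpr1 (chromosome 17, 17876471 to 17883940, minus strand) starts 3884 bases from Fpr2, and its WT order over ligands was another. Late sums in WT were 14.2 and 14.3 CPM with Pam3Cys, 22.5 and 8.70 CPM with R848 and 11.1 and 16.7 CPM with FLA, while KO sums were 0 on both plates with these ligands. With LPS it had 0 and 1.69 CPM in KO, against 9.20 and 2.16 CPM in WT, while Fpr2 had 41.8 and 42.1 CPM in those WT sums. KO was at least 10.6-fold lower with Pam3Cys (37 WT counts, edgeR adjusted p = 0.0633), and at least 7.71-fold lower with R848 (0.104) and 6.11-fold lower with FLA (0.161), none of them called. Whether the order differs between Fpr1 and Fpr2 was not tested. Both KO plates were below both WT plates with 8 of 12 ligands, which share the same plates. The matching share over all genes was not computed.

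**Figure D4:**
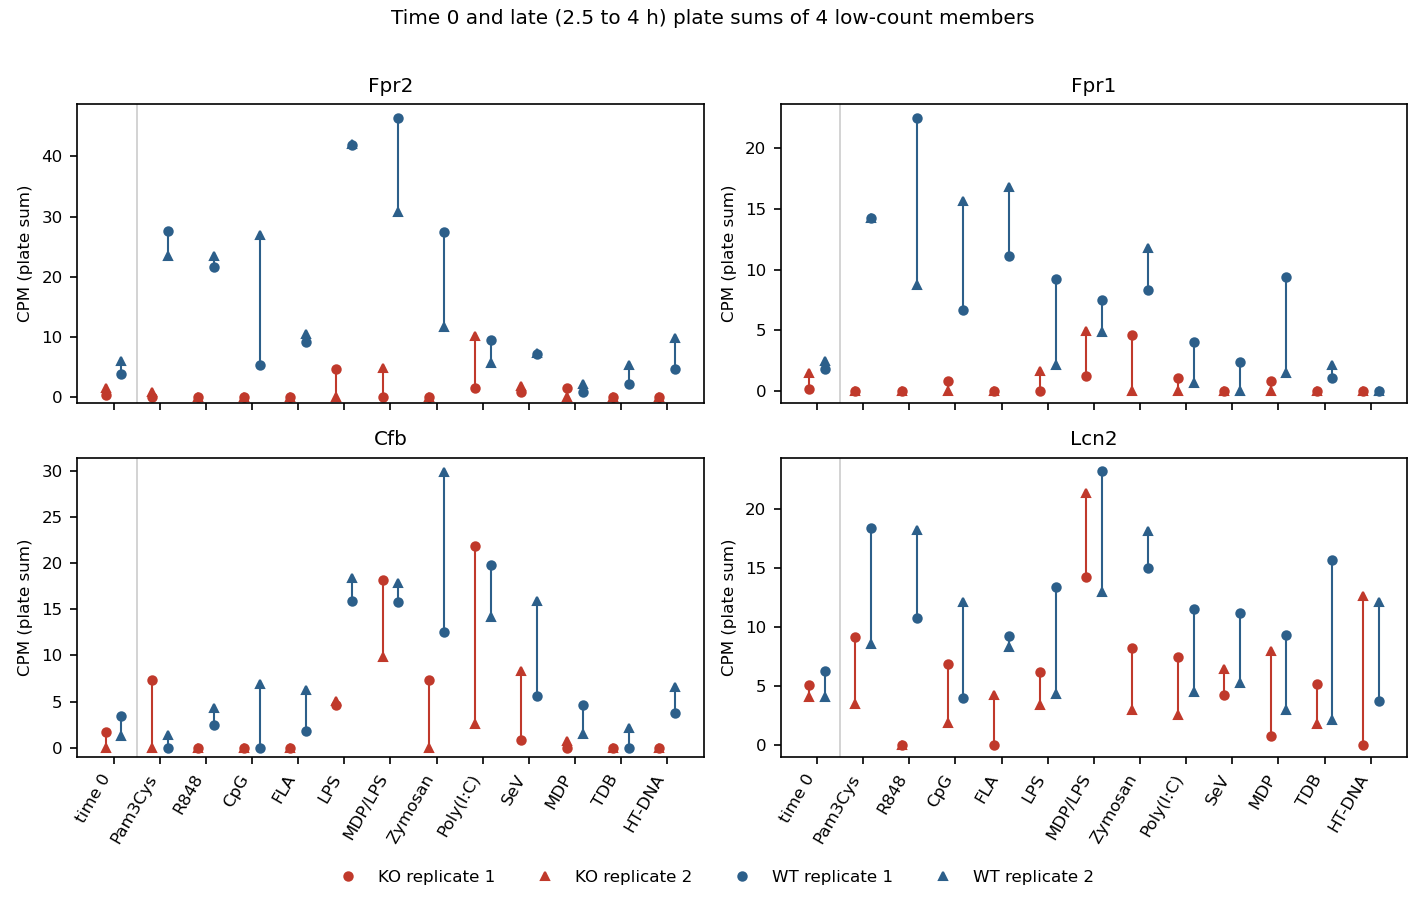
Plate sums in CPM at time 0 and late (2.5 to 4 h) for Fpr2, Fpr1, Cfb and Lcn2, by ligand, with KO in red to the left and WT in blue to the right of each position. Circles are replicate 1 and triangles replicate 2, joined by a line; Fpr2 in WT reaches 46.4 CPM with MDP/LPS while KO does not exceed 10.3 CPM in any ligand.

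Markers of other cells were read beside these genes, since Lcn2, Hp and the formyl peptide receptors are also known from neutrophils. Neutrophil markers summed to 210.9 and 223.5 CPM on KO plates and 236.2 and 212.1 CPM on WT plates, with 9 of the 12 markers in the table at 1 CPM or more. At time 0 they summed to 211.1 and 248.5 CPM in KO and 304 and 251.9 CPM in WT, lower in both KO plates. In late wells they summed to 201.1 and 228.6 CPM in KO and 217.1 and 199.4 CPM in WT, and the plates overlapped. S100a8 had 52.4 and 60.9 CPM in KO and 63.6 and 49.6 CPM in WT, and the genotypes overlapped, as they did for S100a9, Mmp8 and Ngp. Cxcr2 was lower in both KO plates (26.36 and 26.4 CPM, against 31.13 and 31.55 CPM in WT). So was Csf3r (26.27 and 24.08 CPM, against 28.88 and 29.64 CPM in WT). Ltf was higher in both KO plates (7.395 and 6.86 CPM, against 5.707 and 6.202 CPM in WT). Dendritic markers summed to 9.10 and 9.08 CPM in KO and 16.45 and 14.9 CPM in WT, mostly Xcr1, with Flt3 and Cd209a at 0. Fibroblast markers summed to 1.24 and 0.572 CPM in KO and 2.76 and 3.17 CPM in WT, with Col3a1 and Lum at 0. Over all wells, dendritic and fibroblast sums were lower in both KO plates, as was Saa3. At time 0 the dendritic sums overlapped, with 10.23 and 9.138 CPM in KO and 12.65 and 8.524 CPM in WT. Fibroblast sums at time 0 were 0 and 0.7615 CPM in KO and 3.06 and 4.735 CPM in WT. The part of these other cells in the member results was not tested.

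Across all plate sums that entered the fit the members were correlated to differing degrees. Pearson's r of log2 CPM was 0.74 between Saa3 and Fpr2, 0.70 between Saa3 and C3, 0.66 between Saa3 and Fpr1, 0.56 between Fpr1 and Fpr2, 0.53 between C3 and Cfb and 0.45 between Saa3 and Lcn2. Sums share plates and depth, and the low counts of Lcn2, Cfb, Fpr1 and Fpr2 can lower r, so these values are descriptions. Whether the members move apart was not tested. The genes most like Saa3 were Edn1 (0.87), Cxcl3 (0.87) and Marcks (0.86). Those most like C3 were Irg1 (0.79), Slc15a3 (0.78) and Cxcl16 (0.78), and those most like Cfb were Trim30a (0.68), Mndal (0.67) and Stat2 (0.67). Fpr2 was most like Cp (0.73), Il6 (0.69) and Slamf7 (0.69), and Fpr1 most like Rassf4 (0.72), Fam49a (0.69) and Lphn2 (0.68). Lcn2, on few counts, had its highest r with Lrrc25 (0.49).

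Around the members, other acute-phase genes also moved in LPS wells. The gene lists read here were chosen with earlier results of these data known, so their counts of calls are descriptions. Of 25 listed acute-phase genes 6 were tested, and late LPS against time 0 called 3 higher in KO and 4 higher in WT, with median log2 changes of 1.54 and 2.17 beside -0.12 and -0.13 over all genes. Of all genes, 3.26% were called higher and 1.15% lower with LPS in KO, and 4.55% higher and 1.74% lower in WT. Ceruloplasmin, Cp, the copper-carrying ferroxidase, had a log2 change of 0.87 in KO (edgeR adjusted p = 0.186) and 3.37 in WT (2.97e-13), and Mt2, a metallothionein, had 2.67 in KO and 4.22 in WT (2.23e-16). None of the 6 was called at time 0. Of 15 tested genes that induce or regulate the response, 5 were called lower in KO at time 0, against 0.275% of all genes called lower and 0 higher. Among the 5 were Il1b (-3.92, edgeR adjusted p = 3.45e-10), Nfkbiz (-3.52, 1.07e-12), which encodes a nuclear NF-kB cofactor, and Socs3 (-3.12, 1.55e-05). With LPS 4 of the 15 were called higher in KO and 10 in WT, and 1 lower in each genotype. Of these, Socs3, the feedback inhibitor of STAT3 signalling, had a log2 change of 3.78 in KO and 4.21 in WT. Of 7 tested complement components and 10 tested complement regulators and receptors, 0 were called higher, where the shares over all genes would give less than 1 in each list. Of the regulators Cd59a, an inhibitor of the terminal complex, had -1.08 in KO (0.121) and was called lower in WT (-1.48, 0.00968). Of 11 tested iron genes, Slc40a1, the iron exporter, was called lower with LPS in KO (-1.68, 0.0138) and in WT (-2.33, 3.39e-04).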

How the data were processed

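Macrophage wells were profiled by a modified SCRB-Seq protocol, which reads transcript 3′ ends, per the labels' protocols. The deposited values are whole-number counts for every gene in every well, with BWA and mm10 named in the submitters' processing notes. The BWA version, annotation, counting program, strand setting and collapsing of molecular tags were not given in the sources used here. Of 23481 genes, 7381 had no count. Plate totals were 32320373 and 29737092 counts on KO plates and 37323548 and 31280223 counts on WT plates, of which the ribosomal transcript Rn45s took 7.52% to 9.37%. Of 384 wells, 17 held under 150000 counts. No well repeated another (0 identical, chi-square per degree of freedom at least 2.957 over 192 groups). Every well was grouped by its labels.

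Wells were summed by plate and time class into sums of 74 groups, pooling the 12 time 0 wells on each plate over ligand labels. All sums entered 1 model in edgeR 4.0.16 (R 4.3.3): filterByExpr with a minimum count of 10, TMM scaling, robust quasi-likelihood fit, Benjamini-Hochberg adjustment within each comparison. The test was checked on simulated counts, with changes set only in genes with more counts than Lcn2, Cfb, Fpr1 and Fpr2. That check therefore does not cover these 4 members. Tested were KO against WT at time 0, late and middle sums against time 0 in each genotype, KO against WT late, the difference of the late changes, and MDP/LPS against LPS. Poly(I:C) against LPS was added after the data were seen. Alternatives were DESeq2 1.42.0 with its own adjustment, other scaling and filters, wells as replicates, plate as a block, other time classes or baselines, a subtracted plate-wide background (5.64% to 16.7% of a plate's counts), no shallow wells, no Rn45s, and leaving out each plate. The labels name each plate, and all sums of a plate share its cells. Plate nested in genotype was therefore the block. Deviations of sums of a plate from the group means had a median correlation of 0.02 in KO and 0.014 in WT over 666 pairs each.

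The members and gene lists were chosen with earlier results of these data known. Named besides the members are the 3 genes most correlated with each tested member and up to 4 genes of smallest p from each list. Of the lists without a result in the text, formyl peptide receptor relatives had 1 tested gene, neutrophil markers 7 and dendritic markers 2, none called at time 0 or with LPS. Of 9 tested macrophage markers, Cd14, which is also on the acute-phase list, was called higher with LPS in both genotypes. Gene positions are from GENCODE vM21 for mm10 and promoters from RefSeq for GRCm38.p6, both matched by symbol. Fpr3, which overlaps Fpr2, had 1 count in all.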

Additional observations from a re-analysis of the deposited data

How the results depend on the processing

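Of 38 called member values tried under 529 alternatives in all, 439 kept their direction and call, 90 kept their direction and lost the call, and 0 changed sign. All 38 held under DESeq2's size factors in edgeR, without the filter, with the plate block, with wells as replicates and without Rn45s. Against time 0 wells of the same ligand label 22 held, and with the background subtracted 32 held. Member calls at time 0 (1 in the reported analysis) were 2 without the filter, 3 with wells as replicates and 2 with own-label time 0 wells. Late calls in WT (7) were 24 with wells as replicates and 0 to 10 when a plate was left out, 0 without WT replicate 1 and 1 without WT replicate 2. Late calls in KO (11) were 7 with the background subtracted, 2 with own-label time 0 wells and 5 to 8 when a plate was left out, 5 of them without KO replicate 2. Middle calls were 1 with wells as replicates in WT (0), and in KO (1) they were 2 without the filter, 2 with wells as replicates, 0 with own-label time 0 wells and 0 to 1 when a plate was left out. Differences of the late change (0) were 1 with wells as replicates. Late level calls (17) were 27 with wells as replicates, 11 with late wells taken as 3 and 4 h, and 9 to 16 when a plate was left out, 9 without either WT plate. Poly(I:C) against LPS (1) was 0 with DESeq2 and 0 to 1 when a plate was left out. With the replicate block, the late level calls were 18, the late WT calls 8 and the late KO calls 11, and no other count moved. The causes were not tested. Wells taken as replicates share a plate, as do own-label time 0 wells, so their counts of calls are not independent of it. Depth limits Hp, Cfb, Lcn2, Fpr1 and Fpr2, whose late sums often hold under 10 counts in KO. With 2 plates a group, leaving out 1 leaves a lone plate that is assumed to vary like the other groups.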

Other observations

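FLA left Saa3 in WT near its time 0 level, with late sums of 38.8 and 37.7 CPM, while Fpr1 in the same WT sums had 11.1 and 16.7 CPM, above 1.84 and 2.53 CPM at time 0. Neither change was called, and whether the genes differ was not tested. C2, the complement gene next to Cfb, had 10 counts in all wells.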
